A study of Mus musculus with 6 samples.

Results

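The proteins that carry out and assist MLL-dependent transcription were followed as a set of 9 genes: Kmt2a, which encodes MLL itself, its tethering cofactors Men1 and Psip1, the histone methyltransferase gene Dot1l, and the fusion partner genes Mllt1, Mllt3, Mllt10, Aff1 and Aff4. The genes were taken by name, and all 9 were measured among the 22180 genes of the arrays. Each had exactly 1 probe set, and none shared a probe set with another gene. The mean signal of all 9 lay above the background intensity of 74.9, which is the 90th percentile of 53 measured genes listed as silent in blood cells.

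The arrays read total RNA of green fluorescent leukaemia cells from C57BL/6J mice, 10000 sorted cells for each sample. Every leukaemia carried MLL-AF9, the controls included. The 3 samples called WT had no further change, and the 3 called Evi1 Tg also carried an Evi1 transgene. The sources used here do not give the promoter and form of the transgene, the ages of the mice or the species and extent of the fusion construct. They also do not say if a group's 3 samples are 3 animals, and the p-values reflect the spread among these samples, which may be technical.

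MLL is a histone H3 lysine 4 methyltransferase whose amino-terminal portion binds menin (Men1), and the pair binds LEDGF (Psip1), a chromatin reader that holds the complex on active genes. In leukaemic fusions that portion is joined to a partner. The partners AF9 (Mllt3), ENL (Mllt1), AF4 (Aff1) and AFF4 belong to the super elongation complex, which releases paused RNA polymerase II through the kinase P-TEFb, and AF9, ENL and AF10 (Mllt10) also bind DOT1L, the histone H3 lysine 79 methyltransferase. Drugs that block the menin contact or DOT1L act on leukaemias of this kind.

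The CXXC domain of MLL binds unmethylated CpG dinucleotides, so the promoters of the set were read for them. RefSeq windows of the GRCm38.p6 build ran from 250 bases before to 50 after a transcript start. None was matched for Psip1, and the other 8 of the 9 genes had 14 windows in all. They held 4 to 49 CpG dinucleotides, against a median of 7 over 32851 windows. The stretches that precede every annotated transcript are shown for Dot1l, Men1 and Aff4. The groups of Dot1l did not overlap, where 7.08% of all genes were higher in Evi1 Tg without overlap. Men1 was the other member with an unadjusted limma p under 0.05, where 4.5% of all genes were higher at that p. Aff4 had a lower mean in Evi1 Tg. All 3 are on the plus strand, with CpG dinucleotides in capitals, at chr10:80754953-80755100 for Dot1l, chr19:6334729-6334978 for Men1 and chr11:53350517-53350639 for Aff4.
Dot1l: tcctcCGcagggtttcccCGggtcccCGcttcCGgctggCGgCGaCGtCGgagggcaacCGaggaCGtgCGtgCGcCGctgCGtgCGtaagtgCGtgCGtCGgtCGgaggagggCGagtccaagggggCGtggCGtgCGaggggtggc
Men1: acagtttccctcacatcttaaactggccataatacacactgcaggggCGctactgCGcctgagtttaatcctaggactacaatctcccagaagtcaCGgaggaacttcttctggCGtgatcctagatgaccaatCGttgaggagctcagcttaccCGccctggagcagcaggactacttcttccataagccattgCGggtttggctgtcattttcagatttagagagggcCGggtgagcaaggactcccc
Aff4: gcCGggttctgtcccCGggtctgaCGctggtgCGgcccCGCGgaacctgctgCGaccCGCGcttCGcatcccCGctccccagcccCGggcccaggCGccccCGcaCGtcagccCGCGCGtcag
The 148 bases of Dot1l held 23 CpG dinucleotides and the 123 bases of Aff4 held 18, while the 250 bases of Men1 held 8. Over the full windows Dot1l had 49, more than 99.0% of all windows, and the first Men1 window had 11, more than 58.6%. The Aff4 window had 44. Neither the E2F site (TTTCCCGC, TTTCGCGC, TTTGCCGC or TTTGGCGC) nor the binding motifs of the EVI1 zinc finger domains (GATAAGATA for the first domain and GAAGATGAG for the second), searched on both strands, occurred in the 14 windows. Of all windows 2.26%, 0.113% and 0.399% held them. At such shares 14 windows, some of them overlapping, would seldom hold one, so the absence says little about the members. The motifs were chosen after the values were seen.

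The array called WT 3 stood apart from the other WT arrays in genes of cell division. For 24 measured genes of G2 and mitosis, the median of the deviations from each gene's average was -0.49 in WT 1 and -0.67 in WT 2, but 0.28 in WT 3, beside 0.25, 0.27 and 0.42 in Evi1 Tg 1, 2 and 3 (log2 scale). All 24 had a higher mean in Evi1 Tg (median difference 0.57), and 0 of them passed the test described below, with 12 higher at an unadjusted limma p under 0.05. Over all genes 0.00902% were called higher, and 4.5% were higher at that unadjusted p. Mecom, the gene of the transgene, lay below background in both groups (mean intensity 37.0 for WT against 38.6 for Evi1 Tg, limma adjusted p = 0.890), so the arrays give no check of the labels. All 12 measured myeloid leukaemia markers, among them Ptprc, Itgam and Mpo, were above background, with summed intensities of 19600 to 23300 (WT) and 23200 to 26700 (Evi1 Tg). Of the markers of other cells, 0 of 5 T cell, 0 of 5 B cell and 0 of 2 erythroid genes were, as were 1 of 5 NK cell genes (Nkg7), 2 of 3 megakaryocyte genes (Pf4 and Gp9), 2 of 6 mast cell and eosinophil genes (Mcpt8 and Ms4a2) and 1 of 6 stromal and endothelial genes (Pecam1). The summed intensity of the mast cell and eosinophil list was 301 to 1020 on the WT arrays but 311 to 361 on the Evi1 Tg arrays, with the highest sum in WT 2. WT 2 also had the highest sums of the B cell (295), NK cell (310), megakaryocyte (374) and stromal and endothelial (805) lists. Their part in the results below was not tested. In bulk RNA fewer cells of a type and less RNA per cell cannot be told apart.

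None of the 9 genes passed the test between the groups. By limma over all genes, at a threshold of 0.05 on the p adjusted after Benjamini and Hochberg, 0 of 9 were higher and 0 lower in Evi1 Tg, where 0.00902% of all genes were called higher and 0.104% lower. A test without moderation of the variance called 0 of all 22180 genes, and so none of the 9. At an unadjusted limma p under 0.05, Dot1l and Men1 were higher, 2 of 9 genes, against 4.5% of all genes in that direction. Of the 9 differences 7 lay above 0 and 2 below, and their median was 0.091 in log2 units, while 53.5% of all genes lay above 0 with a median of 0.012. The widest 95% interval was that of Psip1 and the narrowest that of Kmt2a.

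**Figure D1:**
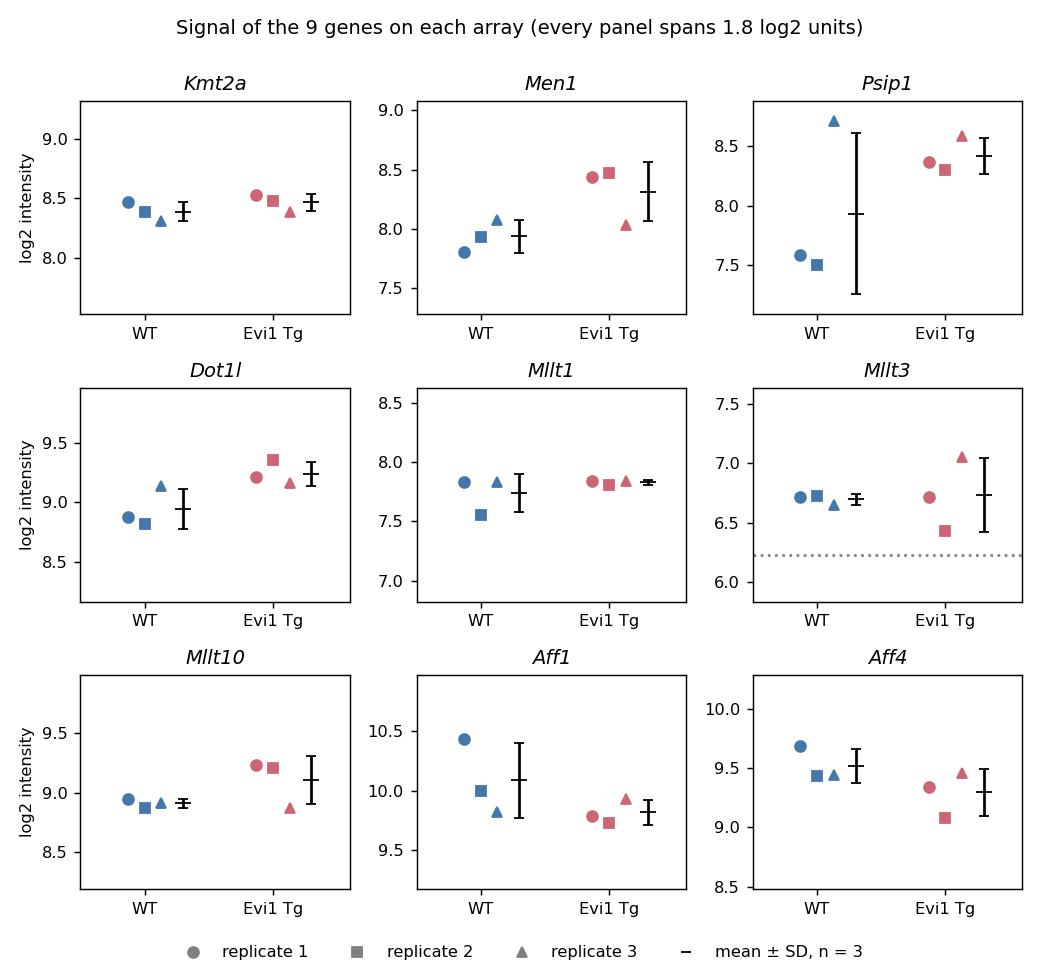
log2 intensity of each of the 9 genes on the 6 arrays, with WT in blue, Evi1 Tg in red, 1 symbol shape for each replicate number and the mean ± SD of 3 arrays beside each group. Every panel spans the same number of log2 units, and the dotted line in the Mllt3 panel is the background intensity of 74.9. Dot1l is the gene whose groups do not overlap, where 7.08% of all genes were higher in Evi1 Tg without overlap.

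Kmt2a was the steadiest of the 9. Its intensity was 354, 335 and 317 on arrays WT 1, 2 and 3, against 370, 356 and 335 on arrays Evi1 Tg 1, 2 and 3. The highest array was Evi1 Tg 1 and the lowest WT 3, and the groups overlapped. The highest intensity was 1.16 times the lowest, and the spread within groups (SD 0.0752 on the log2 scale) was smaller than in all but 6.11% of genes above background. The log2 difference was 0.077 (95% interval -0.12 to 0.28, limma adjusted p = 0.850, n = 3 per group), so that any change in Kmt2a signal between 0.918-fold and 1.21-fold lay within the interval. The difference was 0.037 without WT 3, 0.044 without Evi1 Tg 1 and 0.12 without WT 1 or without Evi1 Tg 3. Whether the MLL-AF9 transcript itself added to the Kmt2a or Mllt3 probe sets was not tested.

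Men1, whose product menin is the tether of MLL and of its fusions, read 223, 245 and 270 on the WT arrays and 347, 356 and 261 on the Evi1 Tg arrays. Evi1 Tg 1 and Evi1 Tg 2 were the highest arrays, and Evi1 Tg 3 lay between WT 2 and WT 3. The difference was 0.38 (SE 0.142, 95% interval 0.043 to 0.71, limma adjusted p = 0.423), a 1.30-fold difference. Without Evi1 Tg 3 it was 0.52 (limma adjusted p = 0.19), and without Evi1 Tg 2 it was 0.30. The exact two-sided permutation p was 0.2, where 3 against 3 arrays cannot give less than 0.1.

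Psip1, which encodes the chromatin reader LEDGF, varied most. It read 192 and 181 in WT 1 and WT 2, but 420 in WT 3. The Evi1 Tg arrays 1, 2 and 3 read 330, 315 and 384. WT 3 was the highest of the 6 arrays, and the other WT arrays lay below all Evi1 Tg arrays. Its spread within groups (SD 0.491 on the log2 scale) exceeded that of 96.3% of genes above background. The difference was 0.48 (SE 0.310, 95% interval -0.25 to 1.22, limma adjusted p = 0.683), and the exact permutation p was 0.4. Without WT 3 the difference was 0.87 (SE 0.113, limma adjusted p = 0.0249), and Psip1 was then called higher, as were 1.73% of all genes. It was 0.31 without WT 1 and 0.27 without WT 2. The deviations of Psip1 from its mean, at -0.59, -0.67 and 0.54 on the WT arrays and 0.19, 0.12 and 0.41 on the Evi1 Tg arrays, placed the same pair of arrays far below 0 as did the mitosis genes. The part of the mitosis signal in the Psip1 values was not tested.

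**Figure D2:**
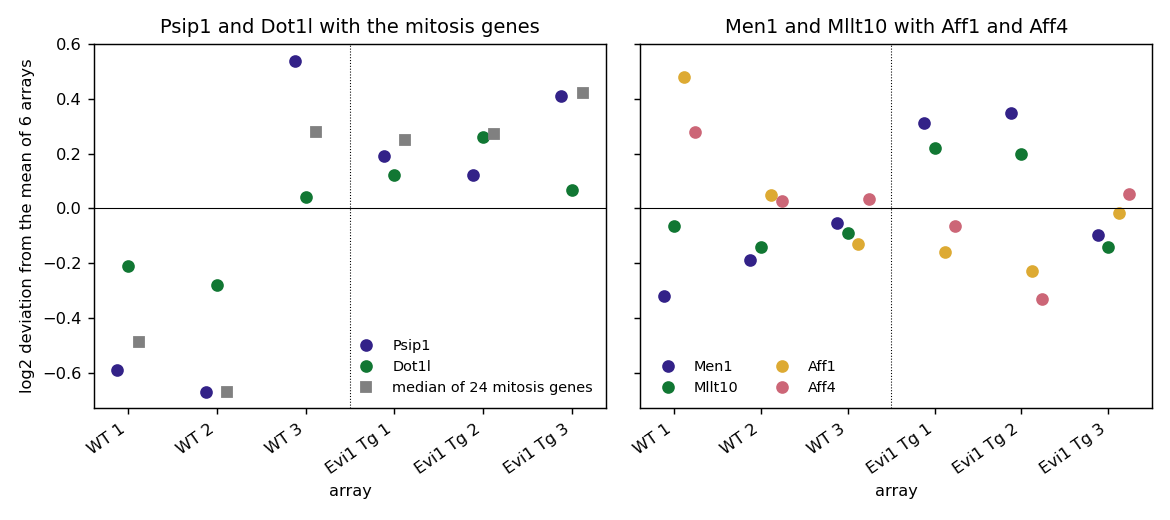
Deviation of each gene from its own mean over the 6 arrays (log2 units), for Psip1 and Dot1l beside the median of 24 mitosis genes (left) and for Men1, Mllt10, Aff1 and Aff4 (right), where the dotted line separates WT from Evi1 Tg. WT 1 and WT 2 lie below 0 for Psip1, Dot1l and the mitosis genes, and Evi1 Tg 1 and Evi1 Tg 2 stand highest for Men1 and Mllt10 and low for Aff1 and Aff4.

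Dot1l was the member with the smallest p and the one whose groups did not overlap. It read 470, 451 and 562 on the WT arrays and 592, 654 and 571 on the Evi1 Tg arrays. All 3 Evi1 Tg arrays lay above all 3 WT arrays, although Evi1 Tg 3 exceeded WT 3 by little. Evi1 Tg was higher without overlap in 7.08% of all genes and lower without overlap in 7.47%, against 1 and 0 of the 9. The difference was 0.30 (SE 0.111, 95% interval 0.035 to 0.56, limma adjusted p = 0.421), or 1.23-fold. The exact permutation p was 0.1, the smallest this design allows. WT 3 was the WT array nearest to Evi1 Tg here as well, and without it the difference was 0.39 (limma adjusted p = 0.101). Without WT 2 the difference was 0.23. Dot1l had a Pearson r of 0.9 with the median of the mitosis genes over the 6 arrays, as a description. Its lowest arrays were the same pair, WT 1 and WT 2. WT 3, however, deviated by 0.043 for Dot1l, below all Evi1 Tg arrays, but by 0.28 for the mitosis genes, above Evi1 Tg 1 and 2. How many of all genes reach such an r was not counted. The r with the mitosis median was 0.961 for Psip1, 0.718 for Mllt1, 0.634 for Men1, 0.385 for Mllt10 and 0.0858 for Mllt3. For Kmt2a, Aff4 and Aff1 it was -0.0186, -0.489 and -0.689. The part of the mitosis signal in the Dot1l values was not tested.

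Mllt10, which encodes AF10, a partner of DOT1L that promotes methylation of lysine 79, read 493, 468 and 483 on the WT arrays and 601, 593 and 469 on the Evi1 Tg arrays. As with Men1, Evi1 Tg 1 and 2 were high and Evi1 Tg 3 lay among the WT arrays. The difference was 0.19 (SE 0.114, 95% interval -0.075 to 0.46, limma adjusted p = 0.642). The WT arrays varied little (SD 0.0374 on the log2 scale), and the Evi1 Tg arrays more (SD 0.202). Without Evi1 Tg 3 the difference was 0.31 (limma adjusted p = 0.283), and without Evi1 Tg 1 it was 0.13.

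By Pearson correlation of log2 intensity over the 6 arrays, the genes most like Dot1l were Tmem198b (r = 0.996), Dhodh (r = 0.995), the mitochondrial enzyme of pyrimidine synthesis, and D5Ertd605e (r = 0.993). They were the 3 highest of 9325 genes above background. As 138 genes had an r above 0.95 over the same arrays, likeness to Dot1l was not rare. Dhodh read 131, 128 and 161 on the WT arrays and 177, 203 and 172 on the Evi1 Tg arrays, which repeats the order of the arrays seen for Dot1l.

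The genes of the YEATS readers AF9 and ENL did not differ between the groups beyond their spread. Mllt1, which encodes ENL, read 227, 187 and 228 on the WT arrays and 229, 224 and 229 on the Evi1 Tg arrays, where WT 2 was the low array and the other 5 lay close together. Its difference was 0.091 (SE 0.1, 95% interval -0.15 to 0.33, limma adjusted p = 0.849), and -0.0026 without WT 2. Mllt3, the gene of AF9 itself, read 105, 106 and 100 on the WT arrays and 105, 86.1 and 133 on the Evi1 Tg arrays. Here the lowest and the highest array were both Evi1 Tg, and the difference was 0.036 (SE 0.154, 95% interval -0.33 to 0.40, limma adjusted p = 0.971). Leaving out Evi1 Tg 2 gave 0.19, and leaving out Evi1 Tg 3 gave -0.12. Mllt3 was nearest of the 9 to background. Its WT arrays varied little (SD 0.0434 on the log2 scale) and its Evi1 Tg arrays more (SD 0.311).

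The AFF genes, scaffolds of the super elongation complex, were the only members with a mean below WT in Evi1 Tg. Aff1, which encodes AF4, read 1384, 1023 and 905 on the WT arrays and 885, 846 and 977 on the Evi1 Tg arrays. WT 1 was the highest array, and WT 3 lay within the Evi1 Tg range. The difference was -0.27 (SE 0.161, 95% interval -0.65 to 0.11, limma adjusted p = 0.648). Without WT 1 it was -0.095, and without WT 3 it was -0.40. Aff4 read 823, 691 and 695 on the WT arrays and 650, 541 and 705 on the Evi1 Tg arrays. WT 1 was again the highest and Evi1 Tg 2 the lowest array, as for Aff1, while Evi1 Tg 3 lay above WT 2 and WT 3. The Aff4 difference was -0.22 (SE 0.127, 95% interval -0.52 to 0.075, limma adjusted p = 0.624). It was -0.14 without WT 1 and -0.12 without Evi1 Tg 2, but -0.31 without Evi1 Tg 3.

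The paralogues of each pair were also set against each other within each array, which asks whether they changed unequally. The log2 ratio of Mllt3 to Mllt1 signal was -1.12, -0.83 and -1.19 on the WT arrays and -1.13, -1.38 and -0.79 on the Evi1 Tg arrays, and its mean differed between the groups by -0.055 (exact two-sided permutation p = 0.9, and 0.9 adjusted over the 2 ratios). For Aff1 to Aff4 it was 0.75, 0.57 and 0.38 on the WT arrays and 0.45, 0.64 and 0.47 on the Evi1 Tg arrays, a difference of -0.045 (exact permutation p = 0.7, and 0.9 adjusted). Both differences were smaller than the SD within WT, at 0.191 and 0.185. With 3 against 3 arrays the permutation p cannot fall under 0.1, so neither ratio could have passed at 0.05. As probe sets differ in their response, the ratios show relative change and not relative amount.

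**Figure D3:**
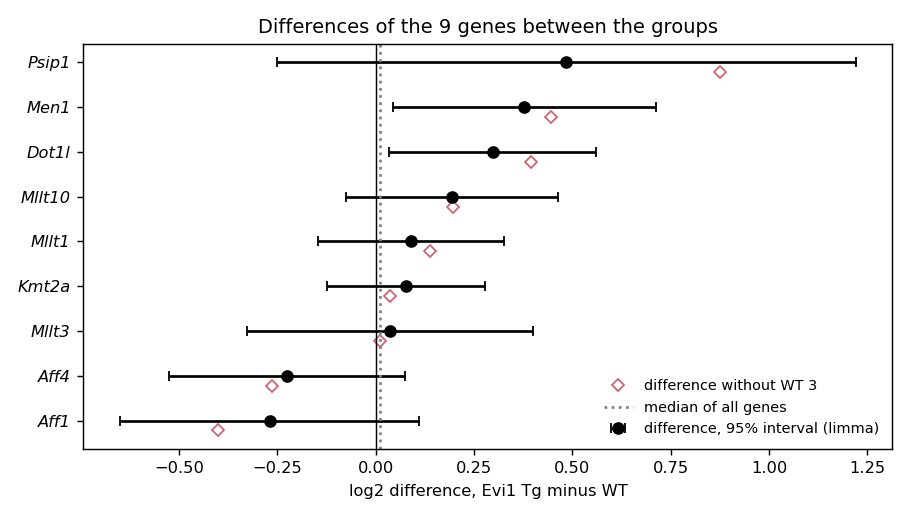
Difference of each of the 9 genes between the groups (log2, Evi1 Tg minus WT) with its 95% interval from limma over 6 arrays, the difference without WT 3 as open diamonds, and the median of all genes as a dotted line. The intervals of Men1 and Dot1l lie above 0 before adjustment, and leaving out WT 3 moves Psip1 from 0.48 to 0.87.

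Across the arrays, then, the 9 genes did not form 1 pattern. The pair Men1 and Mllt10 was highest in Evi1 Tg 1 and Evi1 Tg 2. Aff1 and Aff4 were lowest in Evi1 Tg 2 and highest in WT 1, with deviations from their means of 0.48 and 0.28 there. Evi1 Tg 1 and Evi1 Tg 2 were the most alike of all pairs of arrays (Pearson r = 0.992 across genes, which are not independent replicates). WT 1 with WT 2 and Evi1 Tg 1 with Evi1 Tg 3 came close, each at 0.988. The sources used here do not say whether Evi1 Tg 1 and Evi1 Tg 2 share an animal or a preparation. With both averaged into 1 sample the difference was 0.31 for Men1 and 0.14 for Mllt10.

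The other subunits of MLL-type complexes lay mostly above 0. Of 18 measured genes of the COMPASS-like methyltransferases, 13 had a higher and 5 a lower mean in Evi1 Tg, with a median difference of 0.19, against 53.5% of all genes with a higher mean. None passed over all genes. Paxip1, a subunit of the KMT2C and KMT2D complexes, read 326, 310 and 436 on the WT arrays and 482, 643 and 542 on the Evi1 Tg arrays (difference 0.64, SE 0.163, limma adjusted p = 0.241). The methyltransferase gene Kmt2c lay in the other direction, at 419, 393 and 325 on the WT arrays and 319, 256 and 314 on the Evi1 Tg arrays (difference -0.36, SE 0.134, limma adjusted p = 0.426). In both genes the groups did not overlap, as in Pagr1a, Cxxc1, Setd1a and Wdr5, all with higher values in Evi1 Tg and named after their values were seen. These were 5 of 18 genes higher without overlap and 1 of 18 lower, where the shares over all genes were 7.08% and 7.47%. Pagr1a lay below background.

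Genes of the elongation machinery that the partners join lay on both sides of 0, from -0.27 to 0.57. Of 12 measured genes of the super elongation complex and P-TEFb, 5 had a higher and 7 a lower mean in Evi1 Tg, with a median of -0.035, and 0 passed. Aff2, the relative of Aff1 and Aff4, had the smallest p among those with a higher mean, with 499, 433 and 347 on the WT arrays and 518, 691 and 682 on the Evi1 Tg arrays (difference 0.57, SE 0.169, limma adjusted p = 0.311), so it lay opposite to both. Hexim1, an inhibitor of P-TEFb, had the smallest p among those with a lower mean (difference -0.27, SE 0.150). Of the 6 genes of the PAF1 complex, which binds MLL and RNA polymerase II, 3 lay above and 3 below 0, between Ctr9 at -0.18 and Rtf1 at 0.13.

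Relatives of the members and other chromatin factors gave no call either. The 6 measured genes of YEATS readers and of AF10 and LEDGF relatives all had a higher mean in Evi1 Tg, as did 53.5% of all genes. Their median difference was 0.13, and 0 passed. The differences of Yeats4, Hdgfl2 and Hdgfl3 were smaller than their SE, and Hdgfl3 lay below background. Hdgf, a growth factor of the LEDGF family, read 434, 386 and 608 on the WT arrays and 587, 620 and 780 on the Evi1 Tg arrays (difference 0.49, SE 0.190, limma adjusted p = 0.436), with WT 3 again the highest WT array and within the Evi1 Tg range. A mixed list of 12 other chromatin factors held enzymes that write or erase methylation, among them Nsd1, Nsd2, Nsd3, Setd2, Kdm2a and Kdm4a, beside the Polycomb genes Bmi1, Ring1, Rnf2 and Cbx8, the demethylase family gene Jmjd1c and the deacetylase gene Sirt1. Of these, 7 had a higher mean and 5 a lower one (median 0.078), and 0 passed. Nsd2, a lysine 36 methyltransferase, read 349, 330 and 634 on the WT arrays and 569, 613 and 664 on the Evi1 Tg arrays (difference 0.56, SE 0.243, limma adjusted p = 0.503), with the same pair of low arrays as Psip1. Kdm2a, a lysine 36 demethylase, had a difference of -0.20 (SE 0.0994).

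Among 31 measured genes of other fusion partners, 15 had a higher and 16 a lower mean in Evi1 Tg (median -0.0074), and 0 passed. Abi1, an actin regulator and MLL partner, read 812, 757 and 846 on the WT arrays and 543, 534 and 610 on the Evi1 Tg arrays, without overlap (difference -0.52, SE 0.0915, limma adjusted p = 0.133). Tnrc18 had the smallest p among those with a higher mean (difference 0.37, SE 0.118, limma adjusted p = 0.334). Of the 31 genes 1 was higher and 2 were lower without overlap, against 7.08% and 7.47% of all genes. Mllt6, Ell and Jmjd1c stood in 2 lists each and were counted in both.

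**Figure D4:**
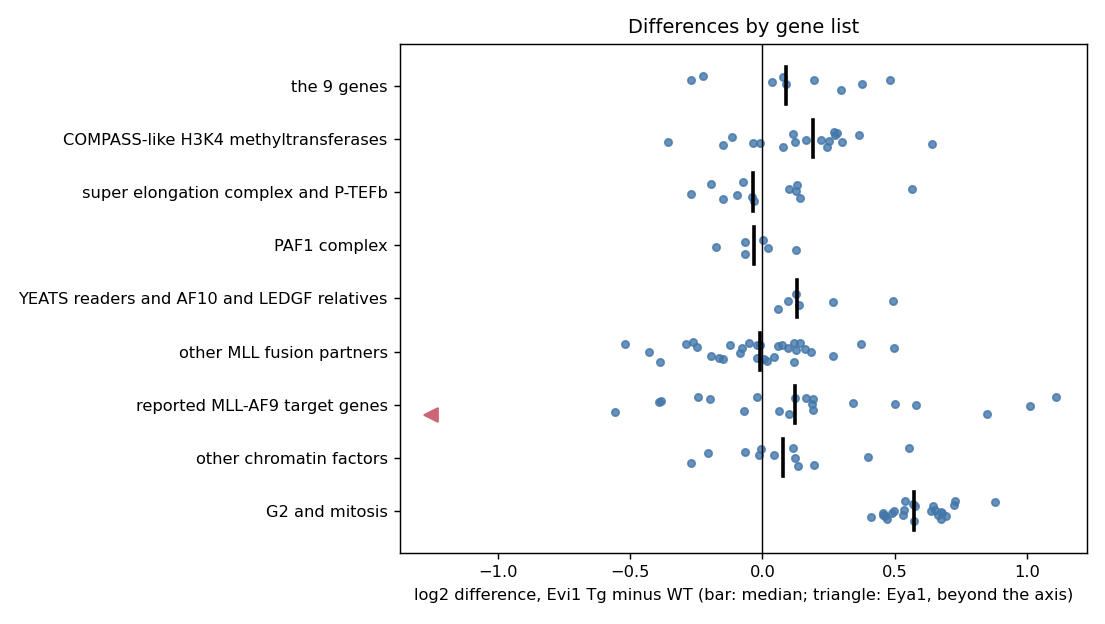
Differences between the groups (log2, Evi1 Tg minus WT) of every measured gene of each list, where a point is 1 gene, the bar is the median of the list and the triangle is Eya1, which lies beyond the axis and has only a bound, as its Evi1 Tg signal was below background. The 24 mitosis genes all lie above 0, and the lists of the MLL machinery spread on both sides of 0, except for the 6 genes of YEATS readers and AF10 and LEDGF relatives.

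Of 21 measured genes reported as targets of MLL-AF9, 13 had a higher and 8 a lower mean in Evi1 Tg (median 0.12), where 53.5% of all genes had a higher mean. The 1 that passed, where 0.104% of all genes were called lower, was Eya1, a transcriptional co-activator, which fell from 1022, 1529 and 1478 in WT to 52.2, 52.2 and 62.1 in Evi1 Tg, where it lay below background (limma adjusted p = 4.85e-04). The test without moderation of the variance called no gene, Eya1 included. The homeobox genes that MLL-AF9 is known to maintain lay on both sides of 0, with log2 differences of 1.01 for Pbx3, 0.85 for Meis1, 0.19 for Hoxa5, 0.16 for Hoxa6, 0.50 for Hoxa7, -0.020 for Hoxa9 and -0.39 for Hoxa10, of which 0 passed. These 7 were named after their values were seen. Pbx3, Meis1 and Hoxa7 were higher and Hoxa10 lower without overlap of the groups. Of the 21 genes 4 were higher and 2 lower without overlap, against 7.08% and 7.47% of all genes. The SE was 0.216 for Hoxa5, 0.161 for Hoxa6 and 0.162 for Hoxa9, near or above the size of their differences.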

How the data were processed

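Per the labels' protocols, total RNA was turned into biotinylated cDNA with the WT PLUS kit for GeneChip arrays. The deposited values are probe set intensity on a linear scale for 6 arrays. The sources used here do not give the background correction, normalization or summarisation. Values were log2 transformed with no pseudocount. Of 34351 probe sets, 23521 had 1 gene symbol in the platform's annotation, 1814 had several and 9016 had none. The probe set with the highest mean over the 6 arrays stood for each of 22180 genes. Medians per array were 51.6 to 55.4.

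Evi1 Tg (n = 3) was compared with WT (n = 3) with limma 3.58.1 (lmFit, then eBayes) under R 4.3.3. The p-values were adjusted over the 22180 genes after Benjamini and Hochberg, and a gene was called under 0.05. A difference is the Evi1 Tg mean less the WT mean of log2 intensity, with its moderated SE. Single values were also compared by exact two-sided permutation over the arrays. The fit was tested on simulated data with noise drawn independently for each gene and array. No simulated array stood apart over many genes, as WT 3 did in genes of cell division. List symbols absent from the annotation were looked up as RefSeq synonyms. The members and lists were chosen with earlier results of these data known. Named were all 9 members, the called genes of each list or else the gene with the smallest p in each direction, the 3 genes most like the member with the smallest p, without predicted genes and small RNAs, and Mecom. Background was the 90th percentile of 53 genes silent in blood cells. The alternatives were another normalization, centring, filter, moderation, array weights, a replicate block, other probe set rules, a pseudocount of 16, and arrays averaged or left out. Figures were drawn with matplotlib 3.10.9.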

Additional observations from a re-analysis of the deposited data

How the results depend on the processing

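Each of the 9 differences was recomputed under 17 alternatives. Of these 153 values 149 kept their direction and their side of the threshold. This count holds values whose direction was fixed in advance. As each gene had 1 probe set, the other probe set rules could not change a difference. Leaving out dim genes, the other moderation settings and the replicate block also left each difference as it was and could only move its p-value. With 1 array left out the Psip1 difference ranged from 0.27 to 0.87 and was called without WT 3 (limma adjusted p = 0.0249, against 0.0249 to 0.909 over its alternatives), so that 0 to 1 members were called. Mllt1 ranged from -0.0026 to 0.14 and Mllt3 from -0.12 to 0.19, and Mllt3 was -0.0043 with array weights. The Mllt3 to Mllt1 ratio differed by -0.21 to 0.086 with 1 array left out and by 0.022 with Evi1 Tg 1 and 2 averaged, and the Aff1 to Aff4 ratio by -0.14 to 0.047. These turns of sign were in values that passed no test. For the ratios this was fixed in advance, as a permutation test of 3 against 3 arrays, or of fewer, cannot give a p under 0.1.

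Counts over all genes moved more, from 23 lower and 2 higher. They were 0 and 0 without moderation, 82 and 32 with array weights, 9 and 0 with a pseudocount of 16, and 6 and 0 with Evi1 Tg 1 and 2 averaged. With dim genes left out, or with trend and robust settings, 6 were higher. With 1 array left out 2 to 173 were lower and 0 to 383 higher, the highest counts without WT 3. The cause was not tested. The replicate block gave 9 lower and 0 higher genes, and 0 members. Deviations of same-numbered arrays correlated at 0.189, -0.184 and 0.0614, so the numbers were not taken as pairs. Groups of 3 arrays limit the precision, and signal near background limits Mllt3.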
